A study of Homo sapiens with 4 samples.

Results

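KRT7, KRT8, KRT18 and KRT19, the simple-epithelial keratins, were described here across human blastoids and the aggregates from which they form. The 4 genes were taken by symbol from the gene lists of both single-cell runs and are 4 of the 36601 genes measured. Naive H9 human embryonic stem cells, an established cell line, were aggregated in microwells and guided towards blastoids, which are stem cell models of the blastocyst. Cultures received 0 mM or 4 mM dm-αKG (dimethyl 2-oxoglutarate, a cell-permeable form of α-ketoglutarate) for the first 40 h, and were taken as whole aggregates at 40 h or as hand-picked single-cavity blastoids at 120 h. Run 1 held 4 hashtagged cultures, 1 of each kind and dose, and run 2 held 2 cultures, blastoids at 0 mM and at 4 mM. A culture is 1 hashtag in 1 run, so each blastoid dose had 2 cultures and each aggregate dose had 1. All cultures shared the same line and basal media.

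Keratins are the intermediate filament proteins of epithelia. A filament is built from pairs of an acidic type I chain, such as KRT18 or KRT19, and a basic type II chain, such as KRT7 or KRT8, and a chain without a partner is degraded. KRT8 and KRT18 are among the earliest keratins of the embryo and mark the trophectoderm, the outer epithelium of the blastocyst that gives rise to the placenta. KRT7 and KRT19 also belong to trophectoderm and trophoblast, and KRT7 is widely used to identify trophoblast of the placenta.

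Within blastoids, cells were divided by 5 trophectoderm genes that are not keratins: CLDN4, GATA3, GATA2, S100A16 and HSD17B1. Cells with at least 4 UMIs (unique molecular identifiers, each counting 1 captured mRNA molecule) of these 5 genes together were called TE-like, and cells with 0 to 3 were called Epi-like, for epiblast, the pluripotent lineage. In run 1 the TE-like cells numbered 26 at 0 mM and 53 at 4 mM, which was 6.1% and 4.85% of the blastoid cells. In run 2 there were 181 at each dose, or 4.64% and 3.64%. The authors report that fragile trophectoderm cells were lost more than others on dissociation, so these are shares of the cells recovered. Epi-like cells numbered 400 and 1039 in run 1 and 3719 and 4793 in run 2, and the aggregates gave 1201 cells at 0 mM and 1054 at 4 mM. Median depth per cell was 28225 to 31693 UMIs in run 1 for all groups but the TE-like cells at 0 mM, at 26318.5, and 15438 to 16893 UMIs in run 2. Of the cells kept, 8 carried a barcode also found in the other run.

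The names were checked on markers that were neither gate genes nor keratins. All 18 trophectoderm markers were detected in each TE-like group, at a summed level of 544 to 1300 counts per 1000000 UMIs of the group (CPM) against 74.1 to 94.7 CPM in Epi-like cells. The 19 epiblast markers summed to 1136 to 3729 CPM in TE-like and 7471 to 8238 CPM in Epi-like cells. The label therefore held only in part: 22 of 26 and 9 of 53 TE-like cells in run 1, at 0 mM and 4 mM, and 134 of 181 and 91 of 181 in run 2 held more epiblast than trophectoderm marker UMIs. Epiblast markers in TE-like cells were lower at 4 mM in both runs, 3729 against 1136 CPM in run 1 and 2746 against 2215 CPM in run 2. Cells close to the gate, with 4 to 7 UMIs, made up 8 of 26 and 3 of 53 in run 1 and 47 of 181 and 24 of 181 in run 2. The changes with dose were therefore also computed under other gates.

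KRT7 (ENSG00000135480), KRT8 (ENSG00000170421) and KRT18 (ENSG00000111057) lie on chromosome 12 and KRT19 (ENSG00000171345) on chromosome 17, in GENCODE v44 on GRCh38, the build the deposited counts use. KRT7 spans chr12:52232520-52252186 on the plus strand, and KRT8 spans chr12:52897187-52949954 on the minus strand. KRT18 lies at chr12:52948871-52952906 on the plus strand, where its start and the longest KRT8 isoforms overlap by 1084 bases on opposite strands. KRT19 is at chr17:41523617-41528308 on the minus strand, in the separate cluster of type I genes, so KRT18 is the type I gene that sits among type II genes. The reference transcripts have 9, 8, 7 and 6 exons for KRT7, KRT8, KRT18 and KRT19, and 3′ tags count molecules at their last exons, so that levels were not divided by length. The annotation names 51 copies of KRT8, 68 of KRT18, 5 of KRT19 and none of KRT7 as numbered pseudogenes, and 0 of these were rows of the count tables. Reads that match such a copy as well as the parent gene could not be followed here. The antisense gene KRT7-AS had 0 UMIs in every group.

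Of the 4 genes, 1 has a promoter window in the RefSeq table used here, that of KRT8, which runs from upstream of a start to just inside the transcript (300 bases, GRCh38.p14, chr12:52926420-52926719, minus strand). It is shown because no other member had a window there. The start is an upstream one, 21393 bases before that of the reference transcript. Capitals mark the only match to the motifs searched.

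KRT8: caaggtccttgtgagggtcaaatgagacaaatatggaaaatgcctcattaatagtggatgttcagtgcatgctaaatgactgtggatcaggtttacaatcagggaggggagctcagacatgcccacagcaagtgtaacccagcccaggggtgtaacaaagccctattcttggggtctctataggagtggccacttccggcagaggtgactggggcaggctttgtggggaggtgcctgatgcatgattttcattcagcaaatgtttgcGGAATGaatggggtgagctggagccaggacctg

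The window was searched on both strands for the GATA factor motif AGATAA, the TFAP2 motif GCCNNNGGC, the TEAD motif GGAATG, the AP-1 motif TGANTCA and the SP1 motif GGGCGG. Among these the TEAD motif was found 1 time, from base 268, and the other 4 motifs were not found in these letters. Among 35116 RefSeq promoter windows of the same length, 14% held the TEAD motif, 10.3% the GATA factor motif, 23.2% the TFAP2 motif, 7.71% the AP-1 motif and 45.0% the SP1 motif.

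The first comparison asked how the keratins differ between the lineages. All 4 were higher in TE-like than in Epi-like cells, by 14.9-fold for KRT7, 59.7-fold for KRT8, 38.3-fold for KRT18 and 45.1-fold for KRT19. KRT18 and KRT8 were the abundant pair in both classes, and KRT7 was the rarest. The order KRT18, KRT8, KRT19, KRT7 was the same in all 10 groups of cells, and in each the 95% Poisson intervals of neighbours were apart.

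KRT8, the type II chain of the early embryo, stood at 2703 CPM in TE-like cells at 0 mM and 3130 CPM at 4 mM in run 1, and at 3124 and 3071 CPM in run 2. In Epi-like cells it stood at 45.5 and 65.2 CPM in run 1 and 55.5 and 66.7 CPM in run 2. Aggregates lay between, at 98.7 CPM with 0 mM and 118 CPM with 4 mM. No Epi-like culture came near a TE-like one, and the fitted difference was 5.90 ± 0.07 on the log2 scale (SE, 4 cultures with both classes).

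KRT18, its type I partner, reached 6608 and 7158 CPM in TE-like cells of run 1 (0 and 4 mM) and 7043 and 6527 CPM in run 2. Epi-like cells had 173 and 258 CPM in run 1 and 181 and 217 CPM in run 2, and aggregates had 182 and 254 CPM. TE-like cultures again lay far above all others, with a log2 difference of 5.26 ± 0.08 (SE), while aggregates and Epi-like cells of the same dose lay close together.

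KRT19, a type I chain that can pair with several type II chains, was at 352 and 1172 CPM in TE-like cells of run 1 and 701 and 1054 CPM in run 2. Epi-like cells had 21.9 and 18.5 CPM in run 1 and 22.9 and 18.0 CPM in run 2. Aggregates stood apart from Epi-like cells at 89.4 and 57.6 CPM. The summed levels of the 3 kinds of cells did not overlap, and the share of all genes with such an order was not computed. Single cells did overlap: in run 2 at 0 mM, TE-like cells reached down to 0 CPM and Epi-like cells up to 844 CPM. The log2 difference of TE-like over Epi-like was 5.49 ± 0.25 (SE), with the widest spread of the 3 abundant keratins.

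KRT7, the type II chain of trophoblast, rested on few molecules. TE-like cells held 5 UMIs at 0 mM and 61 at 4 mM in run 1, or 7.15 and 35.3 CPM, and 23 and 106 UMIs in run 2, or 7.20 and 31.5 CPM. Epi-like cells had 0.95 and 1.58 CPM in run 1 and 1.52 and 1.74 CPM in run 2, and aggregates had 0.665 and 1.20 CPM. The TE-like cultures were all above the rest, by 3.9 ± 0.33 on the log2 scale (SE).

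All 4 differences passed edgeR's quasi-likelihood test with the culture as a block and Benjamini-Hochberg adjustment over 12416 genes, with adjusted p from 6.88e-17 for KRT8 to 1.85e-07 for KRT7. Of all genes tested, 22.6% were called higher and 23.2% lower in TE-like cells. The keratins ranked high among them, since between 98.9% of genes (KRT7) and 99.6% (KRT8) had a smaller log2 difference. The 4 calls held under each alternative run.

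**Figure D1:**
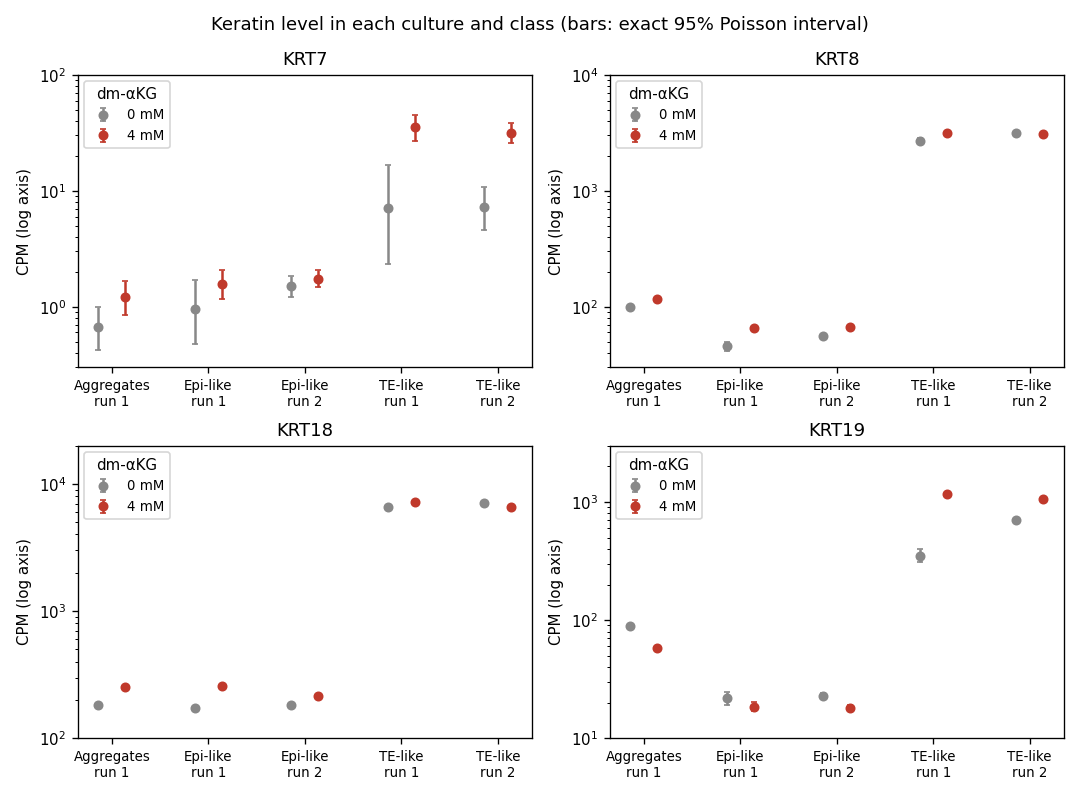
Level of each keratin in CPM (UMIs per 1000000, log axis) in aggregates of run 1 and in Epi-like and TE-like blastoid cells of runs 1 and 2, at 0 mM (grey) and 4 mM (red) dm-αKG, with exact 95% Poisson intervals of the summed UMIs, which cover counting error only. TE-like points lie above all others for each gene, KRT19 of aggregates lies between the classes, and KRT7 of TE-like cells separates by dose.

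Most TE-like cells carried the abundant keratins. To compare groups of unequal depth, each cell was thinned to 5000 UMIs. KRT8 was then seen in 84.6% and 94.3% of TE-like cells in run 1 (0 and 4 mM) and 93.9% and 96.1% in run 2, and KRT18 in 88.5% to 98.1%. Among Epi-like cells the range was 17.8% to 27.2% for KRT8 and 40.8% to 58.7% for KRT18, and among aggregates 35.4% to 37.3% and 49.9% to 58.0%. Unthinned, KRT18 was found in 98.3% to 100.0% of TE-like and 72.3% to 91.1% of Epi-like cells. KRT8 and KRT18 were thus detected in many cells outside the TE-like class, at a far lower level.

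Free RNA in the droplets can give UMIs in cells that do not make a gene, and no cell class here is known to lack KRT8 and KRT18. The part of free RNA in the Epi-like levels was not tested. KRT18 over KRT8 was 3.79 and 3.95 in Epi-like cells of run 1 (0 and 4 mM) and 3.26 and 3.25 in run 2, against 2.44, 2.29, 2.25 and 2.13 in the TE-like cells of the same cultures. In aggregates the ratio was 1.85 at 0 mM and 2.16 at 4 mM.

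UMIs of the type I genes outnumbered those of the type II genes in each group. These are counts of captured mRNA, and the protein chains were not measured. The ratio of KRT18 plus KRT19 over KRT7 plus KRT8 was 2.44 to 2.63 in the 4 TE-like groups, 3.43 to 4.18 in the Epi-like groups, and 2.74 and 2.62 in aggregates. KRT18 alone made up 49.1% to 75.1% of the UMIs of the 4 genes and KRT8 18.9% to 28.7%. The make-up by KRT19 differed more: it was 24.1% in aggregates at 0 mM, 5.40% to 9.07% in Epi-like cells and 3.64% to 10.2% in TE-like cells. KRT7 stayed under 1% in every group, at most 0.581%.

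**Figure D2:**
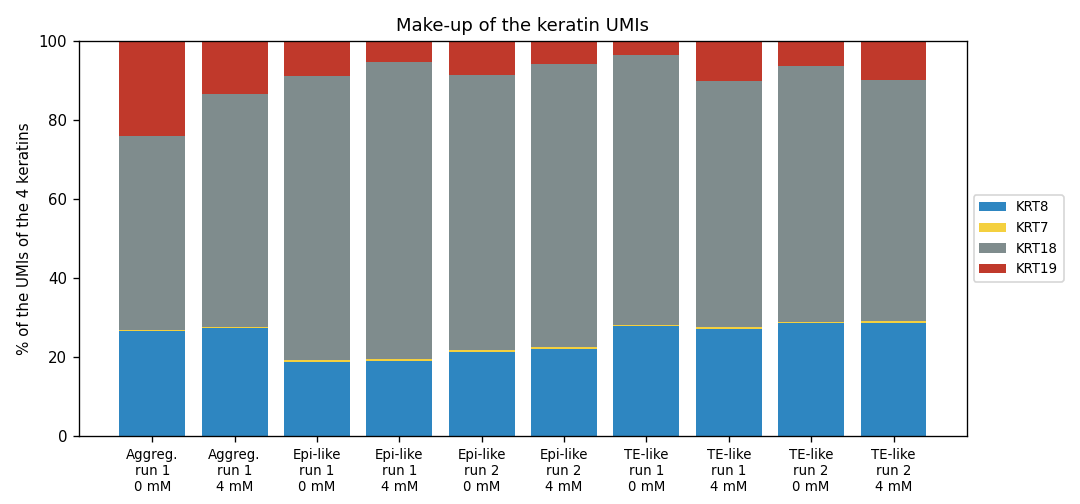
Percent of the summed UMIs of KRT7, KRT8, KRT18 and KRT19 that each gene took, in 10 groups of cells named below the bars. KRT18 is the largest part in every bar, and the KRT19 part shrinks with 4 mM in aggregates and Epi-like cells and widens with 4 mM in TE-like cells.

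In run 2, KRT8, KRT18 and KRT19 rose with the 5 gate genes, mostly across the gate, while KRT7 did not rise evenly. Below the gate the rise was smaller at 4 mM, where KRT8 went from 65.8 CPM at 0 gate UMIs to 103 CPM at 3. In run 2 at 0 mM, KRT8 went from 46.3 CPM in cells with 0 gate UMIs to 202 CPM at 3, 1571 CPM at 4 to 7, 2948 CPM at 8 to 15 and 3866 CPM at 16 to 31, with 3801 CPM at 32 or more. KRT18 followed the same course from 158 to 8972 CPM. KRT19 stayed near 22 to 43 CPM up to 3 gate UMIs and reached 299, 441, 980 and 947 CPM in the 4 bins above. The bin of 4 to 7 UMIs, with 47 cells, still held 5127 CPM of epiblast markers against 1586 CPM in the highest bin, so the lowest TE-like cells were also the least distinct from Epi-like cells.

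Run 1 had fewer cells in these bins, and below the gate KRT8 did not rise there. At 0 mM it went from 45.5 CPM with 0 gate UMIs to 9.65 CPM with 3 (4 cells). At 4 mM it went from 67.4 to 41.7 CPM (16 cells). The 8 cells of run 1 at 4 to 7 UMIs and 0 mM held 439 CPM of KRT8. The 3 such cells at 4 mM held 28.4 CPM, below the Epi-like level. The 39 cells at 32 or more UMIs and 4 mM had 3314 CPM of KRT8 and 7648 CPM of KRT18. In aggregates, 20 cells at 0 mM and 36 at 4 mM had 4 to 7 gate UMIs, and they held 115 and 143 CPM of KRT8, near the level of the aggregates as a whole. A further 3 and 6 aggregate cells had 8 to 15, with 152 and 413 CPM.

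**Figure D3:**
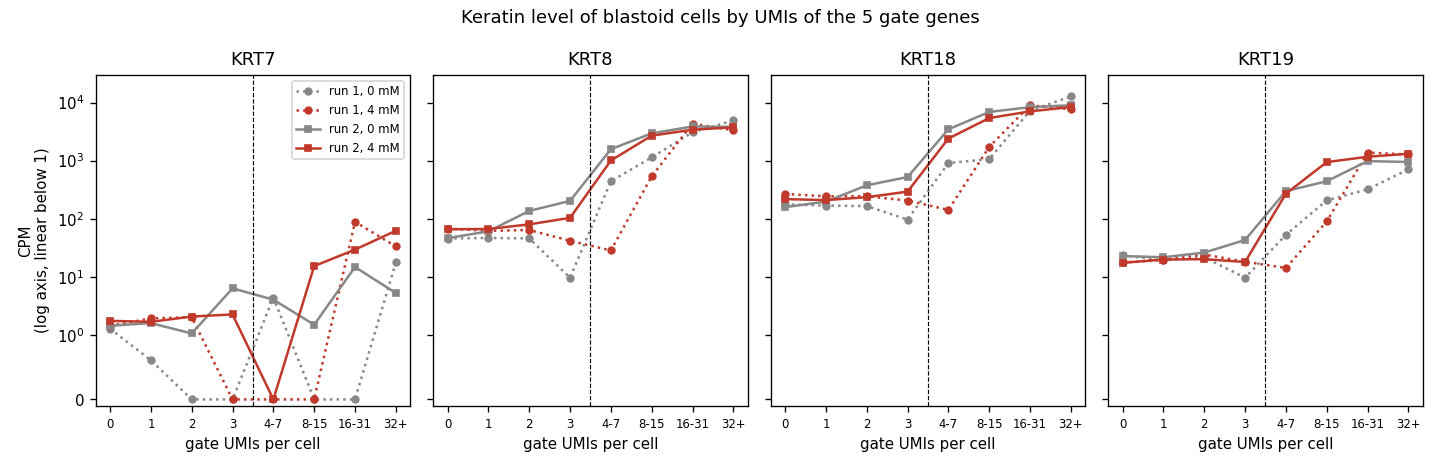
Level of each keratin in blastoid cells, in CPM (log axis, linear below 1), by the number of UMIs of the 5 gate genes in the cell, for each run and dose; the dashed line marks the gate at 4 UMIs. In run 2, KRT8, KRT18 and KRT19 climb across the gate and change less above 16 UMIs; in run 1 at 0 mM they still climb there (KRT8 3080 to 4903 CPM), and at 4 mM the 3 cells with 4 to 7 UMIs lie low (KRT8 28.4 CPM).

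Within TE-like cells, KRT8 and KRT18 went together from cell to cell. Spearman's rho of their CPM was 0.88 over 26 cells and 0.85 over 53 cells in run 1 (0 and 4 mM), and 0.87 and 0.86 over 181 cells each in run 2. KRT8 and KRT19 were less closely tied, at 0.87, 0.56, 0.56 and 0.46 in the same order. KRT7 and KRT19 had values of -0.14, 0.31, 0.05 and 0.28, which in such sparse counts is no more than a description. These cells share their library, and both keratins of a pair are divided by the same cell total. In each culture some TE-like cells also held more epiblast than trophectoderm marker UMIs. The part of this mix of cells in the values of rho was not tested.

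The spread between TE-like cells was wide. The median cell had 3609 and 3146 CPM of KRT8 in run 1 and 3499 and 3247 CPM in run 2, with an interquartile range of 413 to 4607 CPM at 0 mM and 2109 to 4294 CPM at 4 mM in run 1. For KRT19 the median cell was at 159 CPM with 0 mM and 1054 CPM with 4 mM in run 1, and at 538 and 1047 CPM in run 2. Few Epi-like cells reached such levels: of 3719 Epi-like cells in run 2 at 0 mM, 1 was at or above the TE-like median of KRT8 and 2 at or above that of KRT18, and none of 4793 at 4 mM.

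TE-like cells with a UMI of NR2F2, a nuclear receptor used as a marker of mature trophectoderm, had more KRT19 than those without. In run 1 the levels were 587 against 206 CPM at 0 mM (11 and 15 cells) and 1353 against 156 CPM at 4 mM (45 and 8 cells). In run 2 they were 1103 against 455 CPM (65 and 116 cells) and 1240 against 503 CPM (131 and 50 cells). KRT8 and KRT18 were also higher in the NR2F2 cells of all 4 cultures, for example 3824 against 2695 CPM of KRT8 in run 2 at 0 mM. A cell with more UMIs is more likely to show any given gene, and the part of depth was not tested. Nor was the part of TE-like cells that held more epiblast than trophectoderm marker UMIs. Median depth with and without NR2F2 was 25053 and 28201 UMIs in run 1 at 0 mM and 31693 and 30080.5 UMIs at 4 mM, and 18003 and 15778.5 UMIs in run 2 at 0 mM and 17226 and 15564.5 UMIs at 4 mM.

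The second comparison asked what the early dm-αKG treatment changed in TE-like cells. KRT7 and KRT19 were higher at 4 mM in both runs, KRT7 by 4.49-fold and KRT19 by 2.19-fold in the fit, while the main pair, KRT8 and KRT18, did not pass the test. The tests compare 2 cultures with 2, with the run as a block, by edgeR's quasi-likelihood method over 9470 genes. With 1 residual degree of freedom, edgeR set 1 common quasi-likelihood dispersion for genes in this fit. The adjusted p-values, the SEs and the intervals built from them thus do not reflect how far the runs differed for a single gene. Only 1.13% of these genes were called higher at 4 mM and 1.19% lower, and KRT7 and KRT19 were 2 of the 107 called higher.

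In run 1, KRT7 rose from 7.15 to 35.3 CPM, a ratio of 4.93 (95% counting interval 2.00 to 15.7), and in run 2 from 7.20 to 31.5 CPM, a ratio of 4.37 (2.76 to 7.19). Both 4 mM cultures were above both 0 mM cultures, and the share of all genes with this order was not computed. The fitted change was 2.17 ± 0.34 on the log2 scale (SE), with an edgeR adjusted p of 5.46e-08. Thinned to equal depth, a KRT7 UMI was found in 0 of 26 cells at 0 mM in run 1, which allows up to 13.2% by the exact interval, and in 9.43% of 53 cells at 4 mM. In run 2 it was found in 2.76% and 11.6% of 181 cells. The share in Epi-like cells was 0.75% to 1.15% at the same thinned depth, and 0.38% to 0.416% in aggregates. Whether those cells make KRT7 or hold free RNA of it was not tested. At 0 mM the exact intervals of TE-like cells overlapped those of Epi-like cells and aggregates at this depth, and no test was run. In run 2 the overlap was narrow, 0.903% to 6.33% in TE-like against 0.523% to 1.12% in Epi-like cells. At 4 mM the exact intervals of TE-like cells lay above those of both. Unthinned, the TE-like shares were 11.5% and 41.5% in run 1 and 9.94% and 22.7% in run 2, beside 2.23% to 4.33% in Epi-like cells and 2.00% to 3.32% in aggregates; median depths were 26318.5 and 31693 UMIs, 16427 and 16893 UMIs, 15438 to 30015 UMIs, and 28225 to 29108 UMIs in that order.

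In run 1, KRT19 rose from 352 to 1172 CPM, a ratio of 3.33 (2.92 to 3.82), and in run 2 from 701 to 1054 CPM, a ratio of 1.5 (1.43 to 1.59). Both 4 mM cultures were again above both 0 mM cultures, an order not counted over all genes. The untreated cultures also stood well apart from each other. The fitted change was 1.13 ± 0.12 (SE), with an edgeR adjusted p of 4.58e-19. That SE does not hold the gap between the runs, and DESeq2 gave an SE of 0.51. Without run 1 the change was 0.58 on the log2 scale, and without run 2 it was 1.76. After thinning, the share of cells with a KRT19 UMI was 53.8% and 86.8% in run 1 and 76.2% and 85.6% in run 2, against 6.54% to 11.2% in Epi-like cells.

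KRT8 changed by 0.10 ± 0.09 on the log2 scale, with an interval of -0.07 to 0.27, and KRT18 by 0.01 ± 0.08, with an interval of -0.14 to 0.16 (edgeR adjusted p 0.831 and 0.999). The runs pointed in opposite directions. In run 1, KRT8 went from 2703 to 3130 CPM, and in run 2 from 3124 to 3071 CPM, and KRT18 from 6608 to 7158 CPM and from 7043 to 6527 CPM. The share of KRT19 among the UMIs of the 4 genes was 3.64% and 10.2% in run 1 and 6.44% and 9.87% in run 2. The 4 genes together took 9670 and 11495 CPM in run 1 and 10874 and 10684 CPM in run 2, so that the make-up moved towards KRT19 in both runs and the sum rose in run 1 alone.

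The calls in TE-like cells changed with the test and with the gate. A DESeq2 Wald test gave similar changes, 2.2 for KRT7 and 1.16 for KRT19, and called neither (adjusted p 0.656 and 1.00). Under a further gate, a TE-like cell also had to hold more trophectoderm than epiblast marker UMIs, here called the marker share. This left out at least 22 of 26 and 9 of 53 cells in run 1 (0 and 4 mM), and 134 of 181 and 91 of 181 in run 2. KRT7 then changed by 2.24 (edgeR adjusted p 0.404) and KRT19 by 0.29 (edgeR adjusted p 1.00). With a gate of at least 8 UMIs, KRT7 changed by 2.10 and KRT19 by 0.83 (edgeR adjusted p 2.35e-07 and 4.51e-09). With a gate of at least 16 UMIs, an alternative chosen after seeing the data, KRT7 changed by 1.94 with an edgeR adjusted p of 0.0175. KRT19 then changed by 0.74 with an edgeR adjusted p of 0.111.

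**Figure D4:**
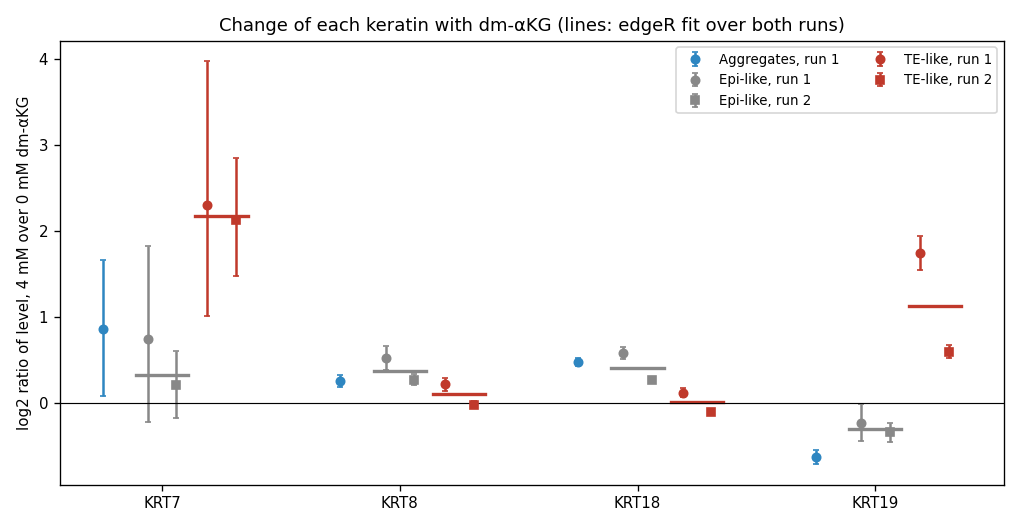
Log2 ratio of each keratin at 4 mM over 0 mM dm-αKG in aggregates, Epi-like and TE-like cells, by run, with 95% counting intervals; horizontal lines are the edgeR fit over both runs. KRT7 and KRT19 of TE-like cells lie well above 0 in both runs, KRT8 and KRT18 of TE-like cells lie near 0, and KRT19 of Epi-like cells and aggregates lies below 0.

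The third comparison took the same contrast in Epi-like cells. KRT8 and KRT18 rose with 4 mM, by 1.29-fold and 1.32-fold in the fit, KRT19 fell to 0.809 of its level, and KRT7 did not pass the test. Of 16987 genes tested there, 5.85% were called higher and 4.13% lower. KRT8 was at 45.5 and 65.2 CPM in run 1 (0 and 4 mM) and at 55.5 and 66.7 CPM in run 2, a change of 0.37 ± 0.07 (SE, edgeR adjusted p 2.56e-05). KRT18 went from 173 to 258 CPM and from 181 to 217 CPM, a change of 0.40 ± 0.07 (edgeR adjusted p 1.00e-06). In both genes each 4 mM culture was above both 0 mM cultures, and the share of all genes with this order was not computed.

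KRT19 fell by 0.31 ± 0.08 on the log2 scale (edgeR adjusted p 0.00505). It was at 21.9 and 18.5 CPM in run 1 (0 and 4 mM) and 22.9 and 18.0 CPM in run 2. The share of cells with a KRT19 UMI after thinning was lower at 4 mM too, 11% and 6.54% in run 1 and 11.2% and 8.03% in run 2. KRT7 was at 0.95 and 1.58 CPM in run 1 and 1.52 and 1.74 CPM in run 2 (change 0.32 ± 0.21, edgeR adjusted p 0.384). None of the 3 calls passed without the run in the model, with edgeR adjusted p of 0.182 for KRT8, 0.123 for KRT18 and 0.234 for KRT19. Nor did any pass when the gate was applied after thinning, which returns some cells with 4 or more gate UMIs to the Epi-like class: KRT8 changed by -0.042, KRT18 by 0.10 and KRT19 by -0.20 (edgeR adjusted p 0.774, 0.374 and 0.0669). DESeq2 did not call KRT19 (-0.30, adjusted p 0.371). With only Epi-like cells at 0 gate UMIs, the 3 calls held: KRT8 changed by 0.53, KRT18 by 0.52 and KRT19 by -0.39 (edgeR adjusted p 4.01e-11, 9.02e-13 and 0.000666).

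Whether the change with dm-αKG differed between the classes was tested directly. The difference, TE-like minus Epi-like, was 1.92 ± 0.47 for KRT7 (SE, log2 scale, edgeR adjusted p 0.0152) and 1.37 ± 0.16 for KRT19 (edgeR adjusted p 3.84e-10). Among 13249 genes, 0.46% were called with a higher change in TE-like cells. For KRT8 the difference was -0.26 ± 0.13 and for KRT18 -0.37 ± 0.13 (edgeR adjusted p 0.640 and 0.219), and with the gate of at least 16 UMIs these were -0.54 and -0.69 and passed (edgeR adjusted p 0.000965 and 1.15e-07). The KRT7 difference did not pass with that gate, at 1.68 (edgeR adjusted p 0.165), nor without the 4 mM culture of run 1, at 1.81 (edgeR adjusted p 0.239), nor without the 0 mM culture of run 2, at 1.54 (edgeR adjusted p 0.588). It was also lost with DESeq2 (1.92, adjusted p 0.147), the gate after thinning (1.46, edgeR adjusted p 0.316) and the marker share (1.91, edgeR adjusted p 0.539). The KRT19 difference passed with each culture left out in turn, at 0.98 to 2.06, and did not pass with the marker share, at 0.71 (edgeR adjusted p 1.00).

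**Figure D5:**
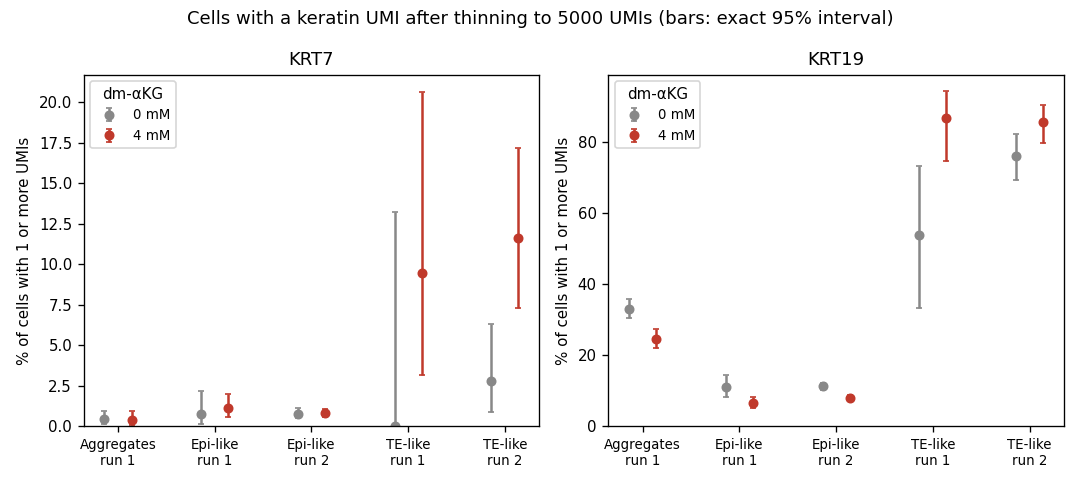
Percent of cells with at least 1 UMI of KRT7 or KRT19 after each cell was thinned to 5000 UMIs, by class, run and dm-αKG dose, with exact 95% intervals that cover counting error only. KRT7 is higher in TE-like cells at 4 mM than in Epi-like cells and aggregates, and KRT19 is lower at 4 mM in aggregates and Epi-like cells and higher in TE-like cells.

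In the 40 h aggregates, sampled at the end of treatment, there was 1 culture per dose, so the values have no replicate check and no test. KRT19 was lower at 4 mM, 57.6 against 89.4 CPM, a ratio of 0.644 (95% counting interval 0.607 to 0.682). KRT18 was higher, 254 against 182 CPM, a ratio of 1.39 (1.35 to 1.44), and KRT8 was 118 against 98.7 CPM, a ratio of 1.19 (1.14 to 1.25). The intervals cover counting error only and say nothing of the spread between cultures.

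Aggregates held more KRT19 than the Epi-like cells of blastoids in the same run, 4.09 times at 0 mM (95% counting interval 3.60 to 4.67) and 3.11 times at 4 mM (2.83 to 3.41). KRT8 was 2.17 and 1.80 times higher, and KRT18 was 1.06 and 0.984 times the Epi-like level. Cells with a KRT19 UMI after thinning were 33.1% and 24.7% of aggregates. Aggregates thus differed from later Epi-like cells in KRT19 and KRT8 and hardly in KRT18. Time and culture cannot be told apart in this contrast.

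The rest of the keratin family was nearly silent. Of 51 other keratin genes in the tables, 35 had 0 UMIs in all classes, 49 were under 1 CPM in each class, and KRT10 alone reached 5 CPM. KRT10, a type I keratin best known from differentiated epidermis, was at 68.5 CPM in aggregates, 70.1 CPM in Epi-like cells and 111 CPM in TE-like cells over all cultures, and it was higher in TE-like than Epi-like cells by 0.79 ± 0.11 (SE, log2 scale, edgeR adjusted p 4.29e-05). KRT17 followed at 1.56 CPM in TE-like cells, or 14 UMIs. KRT10 was the other keratin that could be tested by dose, and it passed in neither class.

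Other intermediate filament genes went mostly the other way. Of 13 tested between the classes, 2 were higher and 7 lower in TE-like cells (22.6% and 23.2% of all genes), with a median of -1.22 on the log2 scale beside -0.02 over all genes tested. LMNA and LMNB2, which form the nuclear lamina, were higher by 1.66 ± 0.08 and 0.38 ± 0.09. Among those lower were PRPH (-4.17 ± 0.82) and NES (-1.54 ± 0.14), filaments of nerve and neural stem cells. So were BFSP2 (-3.01 ± 0.72), known from the lens, and DES (-2.31 ± 0.47), the filament of muscle. PRPH, BFSP2 and DES were rare, at most 2.76, 2.45 and 5.61 CPM in an Epi-like culture, beside 49.7 to 57.3 CPM for NES. By dose, 0 of 7 passed edgeR's test in TE-like cells (2 at an unadjusted p under 0.05), and 3 of 15 were higher at 4 mM in Epi-like cells (5.85% of all genes): SYNM (0.65 ± 0.17), LMNB1 (0.21 ± 0.07) and LMNB2 (0.20 ± 0.07).

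Genes of the desmosome, the junction that anchors keratin filaments, and of the plakins that link them were split. Of 14 tested between the classes, 5 were higher and 5 lower (22.6% and 23.2% of all genes), with a median of -0.30. PKP2 (2.50 ± 0.13), JUP (1.92 ± 0.10), DSC2 (1.82 ± 0.11) and PKP3 (1.51 ± 0.11), all desmosome components, were higher in TE-like cells. EPPK1 (-0.75 ± 0.13), PLEC (-0.64 ± 0.12) and MACF1 (-0.62 ± 0.10), large linker proteins, and the hemidesmosome integrin ITGA6 (-0.68 ± 0.12) were lower. With 4 mM, PKP2 was higher in TE-like cells (0.63 ± 0.19, edgeR adjusted p 0.0409, 1 of 14 tested beside 1.13% of all genes), and in Epi-like cells ITGA6 was higher (0.42 ± 0.07) and JUP lower (-0.42 ± 0.07), 1 of 17 each way beside 5.85% and 4.13% of all genes.

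Keratin partners and chaperones made up the last list, of which 7 of 18 were higher and 3 lower in TE-like cells, beside 22.6% and 23.2% of all genes (median 0.19). SFN, an epithelial 14-3-3 protein, was higher by 1.59 ± 0.23, the caspase CASP6 by 0.93 ± 0.12, and the 14-3-3 genes YWHAQ and YWHAZ by 0.36 ± 0.09 and 0.30 ± 0.08. The caspase CASP8 (-1.67 ± 0.16), the chaperone DNAJB6 (-0.93 ± 0.07), a partner of KRT18, and YWHAG (-0.28 ± 0.09) were lower. HSPA8, a constitutive chaperone, was the gene that passed by dose in TE-like cells (0.50 ± 0.12, 1 of 17 beside 1.13% of all genes), and it was higher in Epi-like cells too (0.35 ± 0.07), beside YWHAG (0.27 ± 0.07) and with CASP6 lower (-0.30 ± 0.07), which made 2 higher and 1 lower of 18 beside 5.85% and 4.13% of all genes. In all 4 lists, 0 genes passed edgeR's test of a different change between the classes, and at an unadjusted p under 0.05 the counts were 1 of 2 other keratins, 4 of 14 other filament genes, 3 of 16 desmosome and plakin genes and 4 of 18 partners.

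The genes most like each keratin were ranked by Pearson's r of log2(CPM + 1) over the 10 sums, 4 TE-like, 4 Epi-like and 2 aggregate, among 5016 genes with a mean of at least 20 CPM. KRT7 was closest to MGST3 (0.989) and PTS (0.986), and KRT8 to CAPN2 (0.998), SLC3A2 (0.995) and UBL3 (0.995). KRT18 was closest to NID1 and LAMB1, basement membrane genes (both 0.994), and to GATA2, itself a gate gene (0.993). KRT19 was closest to ZFHX3 (0.99), CLTA (0.989) and GNAS (0.989). With 2 separated classes in the sums, many genes reach such values, and they describe these libraries only.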

How the data were processed

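Single-cell mRNA (3′ tags) and hashtag libraries of 2 runs were used. The authors deposited raw UMI counts per gene and barcode from Cell Ranger 6.1.2 (GRCh38, 36601 genes) after bcl2fastq 2.20.0.422, and worked in Seurat 4.3.0. Run 1 had 9431 barcodes and 144122560 UMIs, and run 2 had 15133 and 200278140. The GEO samples are pools, so cultures were told apart by the deposited hashtag table, with HTODemux (Seurat 5.3.0, positive quantile 0.99) in each run. This gave 6012 singlets, 512 doublets and 2907 unassigned barcodes in run 1, and 10400, 1142 and 3591 in run 2. Doublets across hashtags were left out, and no caller was run for doublets within a hashtag. Singlets with up to 15% mitochondrial UMIs and at least 7000 (run 1) or 5000 (run 2) UMIs were kept, 3773 and 8874 cells.

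The UMI sums of each culture and class entered edgeR 4.0.16 (glmQLFit and glmQLFTest, with TMM, filterByExpr and Benjamini-Hochberg adjustment, adjusted p under 0.05). The run, a shared capture, was a block in the tests by dose, which left 1 residual degree of freedom, and the culture was a block in the tests between classes. Cells were not used as replicates, and nothing in the labels says that the cultures of a run came from separate stem cell passages. The p-values and SEs thus rest on the spread between these cultures as pooled over genes. In the TE-like fit by dose no weight was given to a gene's own spread (infinite prior degrees of freedom). That spread had little weight in the Epi-like fit and the difference in change (144.5 and 114.8 prior, 1 and 2 residual degrees of freedom). Levels are CPM, with exact 95% Poisson or Clopper-Pearson intervals. All members were described, and of each gene list up to 4 called genes per direction were named, by size of change. The fits were tested on simulated data. DESeq2 1.42.0, other normalization, filters and gates, and leaving out each culture were the alternatives. The members and lists were chosen with earlier results of these data known. Protein sequences were not analysed here. Of the genes most like each keratin, 3 were ranked per keratin, and 1 is not reported here.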

Additional observations from a re-analysis of the deposited data

Results flagged for a closer look

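The change with 4 mM dm-αKG differed between TE-like and Epi-like blastoid cells for KRT7, by 1.92 on the log2 scale, and for KRT19, by 1.37 (edgeR interaction test with Benjamini-Hochberg adjustment, adjusted p 0.0152 and 3.84e-10). The KRT7 difference was not called with DESeq2, the gate of 16 UMIs, the gate after thinning, the marker share or 2 of the 4 cultures left out in turn, and the KRT19 difference fell to 0.71 and was not called with the marker share (edgeR adjusted p 1.00). In TE-like cells KRT7 stood at 7.15 CPM with 0 mM and 35.3 CPM with 4 mM in run 1, and at 7.20 and 31.5 CPM in run 2, beside 0.95, 1.58, 1.52 and 1.74 CPM in the Epi-like cells of the same cultures. KRT19 moved in opposite directions, up in TE-like cells and down in Epi-like cells of both runs. Cells with 4 to 7 gate UMIs and epiblast marker levels in TE-like cells were also lower in share and level at 4 mM. A gate of at least 8 UMIs leaves out the cells at 4 to 7. Under it the differences were 1.86 for KRT7 and 1.13 for KRT19 (edgeR adjusted p 0.0237 and 6.30e-09). Beyond the marker share, the part of epiblast marker levels was not tested.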

How the results depend on the processing

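Between TE-like and Epi-like cells, all 4 keratins kept their direction and call under each alternative run. By dose in TE-like cells, KRT7 and KRT19 lost their call with DESeq2 (2.2 and 1.16) and with a marker share added to the gate (2.24 and 0.29), and KRT19 with the gate of 16 (0.74). KRT8 turned to -0.19, -0.22, -0.24 and -0.24 and KRT18 to -0.30, -0.33, -0.34 and -0.070 under the gates of 8 and 16, the thinned gate and the marker share, and KRT18 to -0.022 with no cell filter. Only KRT18 under the gate of 8 was past the threshold. In Epi-like cells, KRT19 was not called with DESeq2 (-0.30), the thinned gate left KRT8 at -0.042, KRT18 at 0.10 and KRT19 at -0.20, and with no replicate block the changes were 0.37, 0.42 and -0.30, none called. Leaving out the block, which pairs the cultures of a run, changed no other call of a keratin. The difference in change between classes lost its call for KRT7 with DESeq2 (1.92), the gate of 16 (1.68), the thinned gate (1.46) and the marker share (1.91), and for KRT19 with the marker share (0.71). It gained one for KRT18 with the gates of 8 (-0.65) and 16 (-0.69), Epi-like cells at 0 gate UMIs (-0.49) and no cell filter (-0.39), and for KRT8 with the gate of 16 (-0.54). KRT18 in aggregates gave a ratio of 1.33 with no cell filter. Leaving out a culture gave, by dose, the other run's change with no test: -0.031 to 0.23 for KRT8, -0.12 to 0.14 for KRT18 and 0.58 to 1.76 for KRT19 in TE-like cells, and 0.23 to 0.70 for KRT7, 0.29 to 0.48 for KRT8 and 0.28 to 0.54 for KRT18 in Epi-like cells. For the difference in change it gave 1.54 to 2.08 for KRT7 and -0.44 to -0.26 for KRT18, called without the 0 mM culture of run 1. Genes called higher and lower by dose in TE-like cells, 107 and 113, were 4 and 1 with DESeq2, 13 and 17 with the gate of 16, 34 and 50 with the thinned gate, 1 and 0 with the marker share (edgeR, 74 and 56 at an unadjusted p under 0.05), 49 and 49 with no cell filter, and 34 and 25 with no replicate block. In Epi-like cells, 993 and 702 became 159 and 53 with DESeq2 and 17 and 1 with no block. Genes higher in TE-like cells, 2800, were 1763 with the marker share. For the difference in change, 61 and 58 genes became 18 and 11 with DESeq2, 29 and 30 with the thinned gate and 4 and 0 with the marker share (edgeR, 325 and 208 unadjusted), 88 lower with DESeq2 size factors, 36 higher with the gate of 16, and 16 to 122 higher and 2 to 76 lower with a culture left out. The gate of 16 and the cultures left out of the difference were chosen after seeing the data, and the cause of these shifts was not tested. The 26 TE-like cells of run 1 at 0 mM, with 5 KRT7 UMIs, limit what depth allows.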

Other observations

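Barcodes that carried more than 1 hashtag entered no comparison. Of those that passed the cell filter, 5.81% of 413 in run 1 (95% exact interval 3.76 to 8.52) and 10.6% of 1120 in run 2 (8.88 to 12.6) reached the gate of 4 UMIs, against 3.82% and 4.08% of singlets, aggregates included. Their median depth was 38939 UMIs in run 1 and 29962 UMIs in run 2, against 29154 and 15664 UMIs in singlets. The part of depth in reaching the gate was not tested. The keratin levels of barcodes with more than 1 hashtag at the gate were 738 and 1174 CPM of KRT8, 1596 and 2975 CPM of KRT18 and 283 and 314 CPM of KRT19, against 1550 and 3097, 3569 and 6778, and 500.3 and 882 CPM in singlets at the gate, aggregates included. Of barcodes without a hashtag call that passed the filter, 0 of 28 in run 1 and 3 of 693 in run 2 reached the gate.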
